A study of Homo sapiens with 36 samples.

Results

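Drug efflux transporters of the ATP-binding cassette (ABC) superfamily were described at the mRNA level in a pair of human cell lines from colorectal tumours, Caco-2 and HT-29, under agents that imitate hypoxia. The set was the 8 rows of the mRNA count table whose symbol is ABCB1, ABCC1, ABCC2, ABCC3, ABCC4, ABCC5, ABCC6 or ABCG2, of 60591 genes in the table. Each of the 6 groups held 3 libraries that the series describes as biological replicates, 18 in all. Caco-2 cells, differentiated for 21 days before treatment, and HT-29 cells received for 24 h cobalt chloride (CoCl2) at 300 µM, an oxyquinoline derivative (OD) at 5 µM, or dimethyl sulfoxide (DMSO) at 0.5 µl per ml as the control. OD was given in the same amount of DMSO, and its structure is not stated. The CoCl2 stock was made in water, and the labels and the study's methods differ on whether and how much DMSO the CoCl2 medium held, and any solvent difference from the control was not settled. The lines also differed in medium and culture state, which cannot be told apart from the line.

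CoCl2 and OD block prolyl hydroxylation of hypoxia-inducible factor (HIF), the step that leads to its breakdown. ABC efflux pumps use ATP to move drugs, conjugates and bile pigments out of cells. In a polarised intestinal cell ABCB1 (P-glycoprotein), ABCC2 (MRP2) and ABCG2 (BCRP) sit in the apical membrane and return compounds to the lumen, whereas ABCC1 (MRP1), ABCC3 (MRP3), ABCC5 (MRP5) and ABCC6 (MRP6) are basolateral and export toward the blood. ABCC4 (MRP4), which exports cyclic nucleotides and prostaglandins, is found on either side depending on the tissue. The mRNA level does not report the protein or its place in the membrane.

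Promoter sequence was available for 6 of the 8 genes, as 12 RefSeq windows on GRCh38.p14, each 300 bases long and mostly upstream of an annotated start. The windows of ABCC2, ABCC4 and ABCG2 are shown because these genes carried the largest rise (in HT-29), the fall common to every treatment, and the rise under OD in Caco-2. Capitals mark matches, on either strand, to 3 motif cores: ACGTG of the HIF response element, GCGTG of the dioxin response element bound by the aryl hydrocarbon receptor, and TGACNNNGC of the antioxidant response element bound by NRF2. Each is given 5′ to 3′ on the strand of the gene.
ABCC2, chr10:99782390-99782689, plus strand: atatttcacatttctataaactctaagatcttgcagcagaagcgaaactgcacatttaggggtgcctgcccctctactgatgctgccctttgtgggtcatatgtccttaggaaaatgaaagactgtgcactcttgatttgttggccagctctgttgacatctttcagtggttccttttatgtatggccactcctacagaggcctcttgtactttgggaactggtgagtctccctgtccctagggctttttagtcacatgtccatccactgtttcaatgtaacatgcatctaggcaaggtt
ABCC4, chr13:95301402-95301701, minus strand: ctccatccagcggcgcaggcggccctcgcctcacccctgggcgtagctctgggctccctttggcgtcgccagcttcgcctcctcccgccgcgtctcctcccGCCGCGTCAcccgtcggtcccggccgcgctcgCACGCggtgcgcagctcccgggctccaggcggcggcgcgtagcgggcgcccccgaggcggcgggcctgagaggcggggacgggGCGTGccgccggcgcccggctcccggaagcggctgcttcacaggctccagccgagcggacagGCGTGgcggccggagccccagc
ABCG2, 1 of 5 windows, chr4:88158810-88159109, minus strand: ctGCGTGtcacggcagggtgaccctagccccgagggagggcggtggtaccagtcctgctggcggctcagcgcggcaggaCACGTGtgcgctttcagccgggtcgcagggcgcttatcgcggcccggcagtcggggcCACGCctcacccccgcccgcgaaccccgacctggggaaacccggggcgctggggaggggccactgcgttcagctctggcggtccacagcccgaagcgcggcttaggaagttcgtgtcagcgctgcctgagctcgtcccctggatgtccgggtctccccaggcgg

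The ABCC2 window held none of the 3 cores and had a GC content of 45%. That of ABCC4 held 3 matches to GCGTG and 1 to TGACNNNGC, with a GC content of 79.7%. The ABCG2 window held 2 matches to ACGTG, which are the 2 strands of one palindrome, and 2 to GCGTG. It was chosen after the matches were seen: of the other 4 ABCG2 windows, 1 that overlaps it held the same matches, 1 only GCGTG, 1 only TGACNNNGC and 1 none. A match to GCGTG does not tell the HIF core from the dioxin core. Of all 35116 promoter windows of this length, 21.4% held ACGTG, 36.5% held GCGTG and 13.3% held TGACNNNGC. The share that held ACGTG or GCGTG, either form of the HIF core, was not computed. A match is a string of letters and not a measured binding site, and the absence of one covers only these 300 bases.

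On GRCh38, as annotated in GENCODE v44, ABCB1 lies on chromosome 7 from 87503017 to 87713323 (minus strand), ABCC2 on chromosome 10 from 99782640 to 99852594 (plus), and ABCG2 on chromosome 4 from 88090150 to 88231628 (minus). ABCC1 on chromosome 16 spans 15949138 to 16143257 (plus), and ABCC6 follows on the same chromosome from 16149565 to 16223522 (minus). ABCC3 lies on chromosome 17 from 50634777 to 50692253 (plus), ABCC4 on chromosome 13 from 95019835 to 95301475 (minus), and ABCC5 on chromosome 3 from 183919934 to 184017939 (minus). All 8 are protein-coding, with 1 count per gene in each library. The length implied by the deposited values was 6392 bases for ABCB1, far short of its span, which includes introns. The span of RUNDC3B overlaps that of ABCB1 on the opposite strand along 85776 bases, introns included, and ABCC5-AS1 lies opposite ABCC5. The strand setting of the counting is not given in the sources used here. The pseudogenes ABCC6P1 and ABCC6P2 are near copies of ABCC6. Of the 7180 distinct 75-base words in ABCC6 transcripts, 16.7% occur in the transcripts of another gene, so its counts are uncertain. The share covers exact matches only and does not measure the size of that uncertainty. How reads matching several genes were counted is not stated. For ABCB1 this share was 0.823%, all of it with ABCB4, and for the other 6 genes it was at most 0.0656%.

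The libraries held 12925719 to 22332639 counts. Levels are given as CPM, the counts of a gene scaled to the size of its library after TMM (trimmed mean of M values) correction. The correction was made within each line. Where genes are compared with each other, levels are given as RPKM, which also divides by transcript length. A gene was called when the false discovery rate (FDR) of the edgeR quasi-likelihood test was under 0.05 and the log2 fold change lay beyond 1 in either direction, with the FDR adjusted over all genes tested (16034 for Caco-2, 15812 for HT-29). All 8 genes passed the filter on low counts in both lines. Scaling by library size instead of TMM shifted the all-gene median log2 fold change in Caco-2 by -0.32 (CoCl2) and -0.15 (OD), and in HT-29 by -0.63 and -0.14. Changes below are therefore relative to TMM scaling. The all-gene calls for CoCl2 split into 1464 higher and 2283 lower in Caco-2 (870 and 3546 by library size) and into 2749 and 3775 in HT-29 (1295 and 6250). For OD they split into 711 and 1165 in Caco-2 (500 and 1644) and into 1502 and 1197 in HT-29 (1225 and 1596). Epithelial markers were present in both lines, except CDX1 in Caco-2, which no library held above 3 counts. In HT-29 the enterocyte markers ALPI, APOA4 and LCT were at or under 3 counts in every library, against summed enterocyte marker levels of 7687 to 8056 CPM for Caco-2 controls and 228 to 235 CPM for HT-29 controls. In these bulk samples fewer cells of a type and less RNA per cell cannot be told apart.

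The untreated pools of transporter mRNA differed in kind between the lines. In Caco-2 controls ABCC2 and ABCC3 together made up most of it, with 53.2 ± 1.11 RPKM (SD, n = 3) for ABCC2 and 48.9 ± 2.60 for ABCC3, or 41.6% ± 0.65 and 38.2% ± 0.84 of the summed RPKM of the 8 genes. ABCC6 at 8.25 ± 0.545 and ABCC4 at 8.22 ± 0.34 RPKM came next, with overlapping ranges. ABCB1 followed at 3.05 ± 0.19, then ABCC5 at 2.46 ± 0.043 and ABCC1 at 2.37 ± 0.30, whose ranges overlapped, and ABCG2 was lowest at 1.66 ± 0.11 RPKM.

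In HT-29 controls ABCC3 alone, at 59.0 ± 2.06 RPKM, took 66.6% ± 0.66 of the sum. ABCC4 stood at 12.3 ± 0.090 RPKM, ABCC1 at 8.58 ± 0.42, ABCG2 at 6.18 ± 0.25, ABCC5 at 1.71 ± 0.15 and ABCB1 at 0.546 ± 0.052, each separate from the next. ABCC6 (0.172 ± 0.019 RPKM) and ABCC2 (0.131 ± 0.089) were at the bottom with overlapping ranges. These 2 values were computed from the counts, because the deposited RPKM table lists both genes at 0 in HT-29.

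Between the control groups, 2 of the 8 genes were called higher in HT-29 and 3 lower, where 21.6% of 17921 genes were called higher and 24.2% lower. ABCC2 differed most, with a log2 difference (HT-29 minus Caco-2) of -8.63 (SE 0.13, FDR 1.8e-33). ABCC6 was lower in HT-29 by a log2 difference of -5.50 (SE 0.16), with -5.21 for ABCC6P1 and -4.09 for ABCC6P2, and ABCB1 by -2.39 (SE 0.13). ABCC1 and ABCG2 were higher in HT-29, at 1.93 (SE 0.08) and 1.97 (SE 0.10). ABCC3 (0.35), ABCC4 (0.66) and ABCC5 (-0.45) passed the FDR alone, as did all 8 genes and 79.1% of genes tested. The median absolute log2 difference was 1.95 for the 8 genes and 0.91 for all genes.

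**Figure D1:**
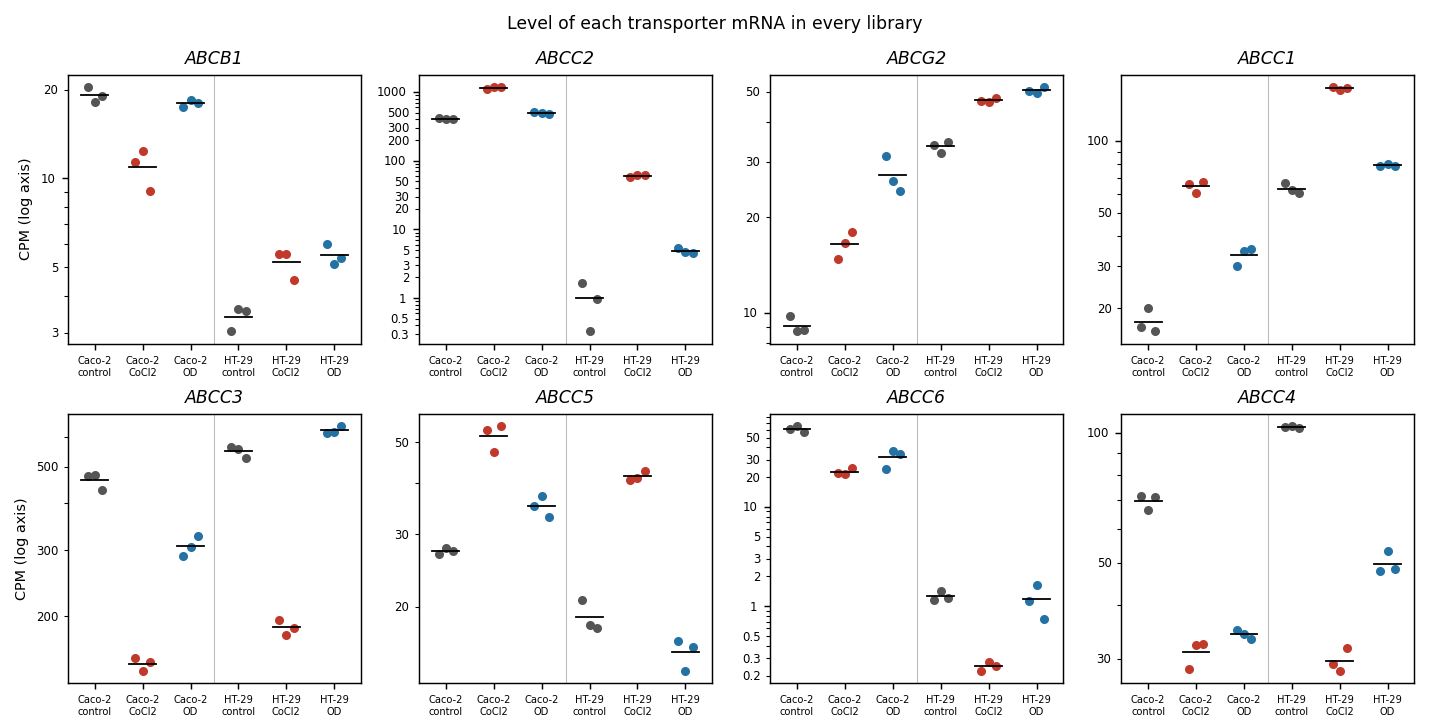
CPM of each of the 8 mRNAs (log axis, a scale of its own in each panel) in the 18 libraries, by group. Points are libraries and lines the mean of 3. ABCC2 in HT-29 climbs from 0.994 CPM in controls to 60.3 with CoCl2, and ABCC4 falls in all 4 treated groups.

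ABCC2, the canalicular and enterocyte pump for glutathione and glucuronide conjugates, had the largest response of the set in HT-29, but not in Caco-2. In Caco-2 its controls held 417, 409 and 401 CPM, the CoCl2 libraries 1113, 1169 and 1192, and the OD libraries 505, 498 and 479. All 3 groups were separate from each other. CoCl2 raised ABCC2 by a log2 fold change of 1.5 (SE 0.07, FDR 3.27e-15), while OD gave 0.27 (SE 0.07, FDR 0.00196) and no call. The OD change was 0.12 with library size only (FDR 0.112). CoCl2 against OD gave 1.23 (SE 0.07, FDR 7.66e-13).

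In HT-29 the ABCC2 controls held only 26, 6 and 26 counts, which is 1.68, 0.328 and 0.976 CPM. CoCl2 libraries held 778, 887 and 748 counts (58.1, 61.3 and 61.6 CPM), and OD libraries 102, 80 and 86 counts (5.28, 4.66 and 4.58 CPM). No group overlapped another. The log2 fold change was 5.96 with CoCl2 (SE 0.15, FDR 6.34e-23), the 30th highest of the genes tested, and 2.32 with OD (SE 0.22, FDR 7.62e-10). It was 5.59 and 1.96 without control replicate 2, the library with 6 counts, and 6.39 and 2.75 without control replicate 1. These shifts exceed the SE given, which was derived from the test statistic and may be too small at such low counts. CoCl2 exceeded OD by 3.64 (SE 0.11, FDR 1.78e-20). The response differed between the lines (HT-29 change minus Caco-2 change, tested as an interaction) by 4.35 for CoCl2 (SE 0.18, FDR 4.49e-20) and by 2.03 for OD (SE 0.22, FDR 3.16e-09). The level reached in HT-29 with CoCl2, 60.3 ± 1.94 CPM, was still under that of untreated Caco-2, 409 ± 8.07. These CPM were scaled within each line, and the difference between these groups was not tested.

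ABCG2, the pump for urate, porphyrins and many anticancer drugs, was one of the 2 genes called with OD in Caco-2. Its Caco-2 controls held 9.78, 8.72 and 8.79 CPM, CoCl2 libraries 14.7, 16.6 and 18, and OD libraries 31.3, 26.1 and 24.3. The groups were separate, and OD stood above CoCl2. The log2 fold change was 1.58 with OD (SE 0.13, FDR 2.74e-10) and 0.86 with CoCl2 (SE 0.13, FDR 3.53e-06), with -0.72 (SE 0.12, FDR 2e-05) for CoCl2 against OD. In HT-29, ABCG2 went from 33.95, 32.0 and 34.8 CPM in controls to 46.7, 46.4 and 47.9 under CoCl2 and 50.1, 49.6 and 51.9 under OD. These were changes of 0.48 (SE 0.06, FDR 1.79e-08) and 0.59 (SE 0.05, FDR 3.93e-10), neither called. The CoCl2 value turned to -0.15 with library size only. The OD response was smaller in HT-29 than in Caco-2, by -1.01 (SE 0.13, FDR 7.81e-08), just past the limit on the fold change.

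ABCB1, P-glycoprotein, moved in opposite directions in the lines under CoCl2. Its Caco-2 level moved from 20.4, 18.1 and 19.0 CPM in controls to 11.3, 12.4 and 9.09 with CoCl2, a log2 change of -0.82 (SE 0.12, FDR 3.47e-06). With OD it held 17.5, 18.4 and 18.1 CPM, which overlapped the controls, and the change of -0.09 had a 95% interval from -0.33 to 0.14 (FDR 0.532). In HT-29, ABCB1 went from 3.03, 3.61 and 3.57 CPM up to 5.53, 5.53 and 4.53 under CoCl2 and 6.0, 5.12 and 5.37 with OD, changes of 0.60 (SE 0.15, FDR 0.00068) and 0.68 (SE 0.14, FDR 0.000118). None of these reached a log2 change of 1 in the main analysis. The Caco-2 change with CoCl2 was -1.14 with library size only (FDR 1.58e-07) and was then called. The difference between the lines in the CoCl2 response was 1.32 (SE 0.20, FDR 7.17e-07) and was called. The HT-29 change with CoCl2 was -0.03 with library size only (FDR 0.858), and the difference between the lines held under every scaling tried. The HT-29 libraries held 47 to 116 ABCB1 counts each.

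ABCC3, which carries bile acids and glucuronides out of the basolateral side, fell with CoCl2 in both lines. In Caco-2 it went from 474, 476 and 433 CPM in controls to 155, 143 and 151 under CoCl2 and 289, 307 and 327 under OD. The log2 fold change was -1.62 with CoCl2 (SE 0.07, FDR 2.76e-15) and -0.58 with OD (SE 0.07, FDR 3.88e-07). In HT-29 the controls held 564, 559 and 529 CPM and the CoCl2 libraries 195, 179 and 186, a change of -1.56 (SE 0.05, FDR 4.28e-21). OD libraries of HT-29 held 614, 620.5 and 642 CPM, above all controls, with a change of 0.18 (SE 0.04, FDR 0.000752). The CoCl2 responses of the lines differed by -0.04, with a 95% interval from -0.21 to 0.13. The OD responses differed by 0.75 (SE 0.09, FDR 6.69e-09), which was not called. CoCl2 against OD was -1.04 for Caco-2 (FDR 4.46e-11), or -0.996 without OD replicate 3, and -1.74 for HT-29 (FDR 9.16e-22).

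ABCC1, a basolateral exporter of glutathione conjugates and leukotrienes, rose with CoCl2 in both lines. Caco-2 controls held 16.6, 20.1 and 16.0 CPM, against 66.2, 60.7 and 67.4 under CoCl2 (log2 fold change 1.88, SE 0.10, FDR 6.08e-14) and 30.1, 34.8 and 35.4 under OD (0.93, SE 0.10, FDR 7.73e-08, not called). In HT-29 it went from 66.5, 62.1 and 60.6 CPM to 169, 163 and 167 under CoCl2 (1.40, SE 0.05, FDR 1.69e-19) and 78.5, 80.4 and 78.6 under OD (0.33, SE 0.05, FDR 2.25e-06). The groups were separate in each comparison. The HT-29 change with CoCl2 was 0.77 with library size only and was then not called. The change was smaller in HT-29 than in Caco-2 by -0.59 for CoCl2 (FDR 1.75e-05) and -0.62 for OD (FDR 2.09e-05), neither called.

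ABCC5, which exports cyclic nucleotides and nucleotide analogues, ran from 26.9 to 27.8 CPM in Caco-2 controls, 47.4 to 54.8 with CoCl2 and 33.0 to 37.1 with OD. Its log2 changes were 0.93 (SE 0.09, FDR 3.18e-09) and 0.36 (SE 0.09, FDR 0.00226), neither called. The OD change was 0.20 with library size only (FDR 0.0611). In HT-29 it ran from 17.8 to 20.8 CPM in controls, 40.6 to 42.6 with CoCl2 and 14.0 to 16.5 with OD. CoCl2 raised it by 1.14 (SE 0.07, FDR 7.96e-14), and OD gave -0.27 (SE 0.08, FDR 0.00476). The CoCl2 change was 0.51 with library size only and 0.74 by limma-trend on the deposited values, neither called. The CoCl2 responses of the lines differed by 0.11, with a 95% interval from -0.12 to 0.34.

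ABCC6, whose loss causes pseudoxanthoma elasticum, ran from 57.4 to 65.3 CPM in Caco-2 controls, 21.4 to 24.8 with CoCl2 and 23.9 to 36.3 with OD. CoCl2 lowered it by a log2 change of -1.43 (SE 0.12, FDR 1.81e-10), and OD gave -0.96 (SE 0.11, FDR 2.26e-07), just short of a call. The OD change was called with library size only (-1.11), without OD replicate 2 (-1.07) and without OD replicate 3 (-1.01). The near copies ABCC6P1 and ABCC6P2 changed by -1.07 and -1.35 with CoCl2 and by -0.83 and -1.23 with OD in Caco-2. Reads that fall in the shared words could belong to ABCC6 or to these copies. HT-29 libraries held 18 to 32 ABCC6 counts in controls, 3 or 4 with CoCl2 and 14 to 28 with OD. The fitted change with CoCl2 in HT-29 was -2.30 (SE 0.42, FDR 1.53e-05), at counts near the floor of 3 used here. With OD it was -0.12, with a 95% interval from -0.65 to 0.41.

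ABCC4 was the gene called in all 4 comparisons with control, each time lower. Caco-2 controls held 71.3, 66.1 and 71.2 CPM, against 28.4, 32.3 and 32.5 under CoCl2 and 35.0, 34.2 and 33.4 under OD. Its log2 changes were -1.16 (SE 0.09, FDR 2.24e-11) and -1.02 (SE 0.08, FDR 5.16e-10). CoCl2 against OD was -0.14, with a 95% interval from -0.31 to 0.04. In HT-29 it went from 103.1, 103.7 and 102.5 CPM to 29.1, 28.1 and 31.7 under CoCl2 and 47.9, 53.1 and 48.4 under OD. These were changes of -1.80 (SE 0.06, FDR 1.94e-20) and -1.05 (SE 0.05, FDR 1.14e-15). The CoCl2 fall was larger in HT-29 by -0.75 (SE 0.10, FDR 1.46e-07, not called), and the OD falls differed by -0.04, with a 95% interval from -0.23 to 0.15. Treated groups stayed below the controls in both lines without overlap. The OD calls lay near the limit: that in Caco-2 was lost without a filter on low counts (-0.99) and that in each line by limma-trend on the deposited values (-0.90 in Caco-2, -0.96 in HT-29).

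**Figure D2:**
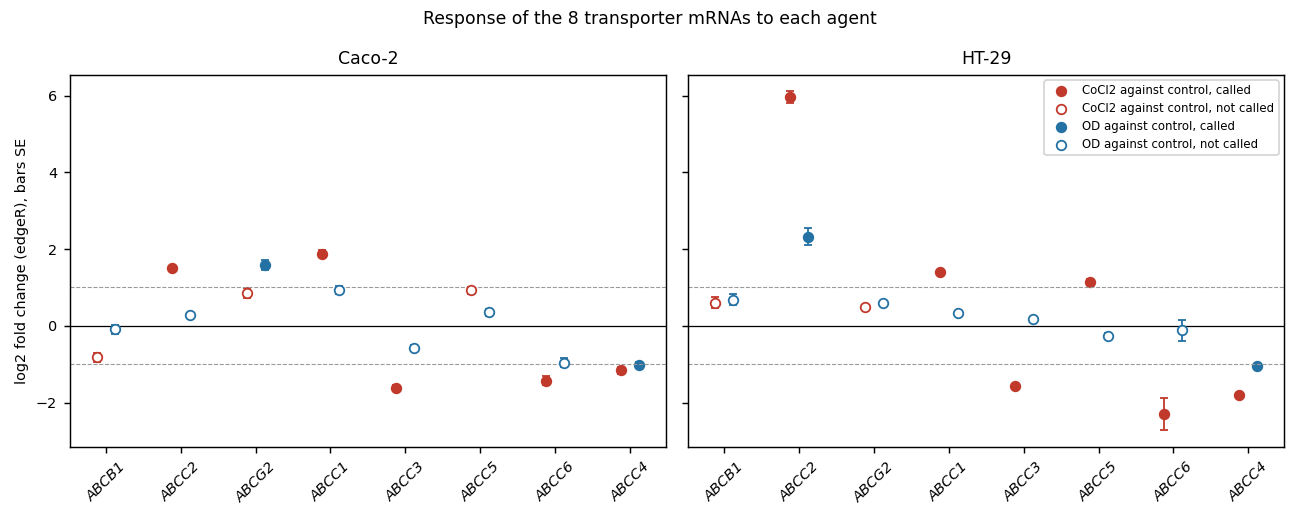
edgeR log2 fold change of each mRNA against control (vertical axis, bars SE), Caco-2 on the left and HT-29 on the right, red for CoCl2 and blue for OD. Filled points were called, open points were not, and dashed lines mark -1 and 1. ABCC2 in HT-29 stands at 5.96 with CoCl2, and ABCC4 lies under -1 with both agents in both lines.

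Counted over the 8 genes, CoCl2 in Caco-2 gave 2 higher (ABCC1, ABCC2) and 3 lower (ABCC3, ABCC4, ABCC6), where 9.13% of all genes were called higher and 14.2% lower. With library size only, ABCB1 was called lower there as well. In HT-29, CoCl2 gave 3 higher (ABCC1, ABCC2, ABCC5) and 3 lower (ABCC3, ABCC4, ABCC6), against 17.4% and 23.9% of all genes. With library size only this became 1 higher (ABCC2) and the same 3 lower. OD gave 1 higher and 1 lower in each line, ABCG2 and ABCC4 in Caco-2 (4.43% and 7.27% of all genes) and ABCC2 and ABCC4 in HT-29 (9.50% and 7.57%). With library size only, OD in Caco-2 called ABCC6 lower as well. By FDR alone all 8 genes passed with CoCl2 in each line, as did 64.7% of Caco-2 genes and 82.8% of HT-29 genes, and 7 passed with OD, against 50.4% and 68.8%. In Caco-2 the median absolute log2 change of the 8 genes was 1.29 (CoCl2) and 0.76 (OD), beside 0.52 and 0.37 for all genes. In HT-29 it was 1.48 and 0.46, beside 0.82 and 0.42. The signed medians were 0.02 and 0.09 for Caco-2, then 0.54 and 0.26 for HT-29, since rises and falls offset each other.

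The marker lists were read beside these counts. Of all genes in Caco-2, 9.13% were called higher and 14.2% lower with CoCl2, and 4.43% and 7.27% with OD. In HT-29 these shares were 17.4% and 23.9% with CoCl2, and 9.50% and 7.57% with OD. In Caco-2 the 11 enterocyte markers had 1 called higher (APOA4, 2.22) and 4 lower with CoCl2, and 2 higher (APOA4 and SLC5A1, 1.31 and 1.03) and 0 lower with OD. Their summed level was 5734 to 6277 CPM under CoCl2 and 6571 to 6802 under OD, and the apolipoprotein gene APOB alone went from 3927 ± 18.5 CPM in controls to 1063 ± 117 and 2359 ± 259. Epithelial markers in Caco-2 gave 3 higher and 0 lower of 8 tested with CoCl2 and 1 and 0 with OD, and the goblet list gave 0 calls among 4 tested. In HT-29 with CoCl2, 2 of 9 epithelial markers were called higher (KRT19 2.35, KRT20 1.23) and 3 lower (VIL1 -2.62, CDX1 -2.43, CDX2 -1.46), and 4 of 6 goblet markers lower, with ATOH1 at -3.26. With OD in HT-29, KRT20 (1.39) was called higher and VIL1 (-1.15) lower, and 2 goblet markers lower. The summed level of all 7 goblet markers went the other way in HT-29. It was 656 to 703 CPM in controls, 773 to 800 with CoCl2 and 788 to 827 with OD. ATOH1 was low there, at 3.68 ± 0.29 CPM in controls. Of 6 enterocyte markers tested in HT-29, 0 were called higher and 2 lower with CoCl2, and 1 and 1 with OD. The summed level of all 11 enterocyte markers in HT-29 was 228 to 235 CPM in controls, 261 to 274 with CoCl2 and 204 to 205 with OD. Markers of other cell types, summed over 10 genes, ran from 83.2 to 98.7 CPM in Caco-2 controls, 22.0 to 26.0 under CoCl2 and 36.3 to 39.6 under OD, and from 2.54 to 7.72 CPM in HT-29, with the leukocyte marker PTPRC at or under 3 counts in every library. Most of the sum in Caco-2 controls was PDGFRB, at 53.9 ± 4.28 CPM there and 3.10 ± 0.57 with CoCl2. The part of these markers in the transporter changes was not tested.

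The direct comparison of the agents, which received different doses, called ABCC2 higher and ABCC3 lower under CoCl2 in Caco-2 (5.21% and 6.44% of all genes were called in those directions). In HT-29 it called ABCC1 (1.07), ABCC2 and ABCC5 (1.41) higher and ABCC3 and ABCC6 (-2.18) lower, against 10.8% and 19.2% of all genes. With library size only, ABCC1 (0.57) and ABCC5 (0.92) lost these calls and ABCC4 gained one (-1.25). Both also lost them by limma-trend on the deposited values (0.94 and 0.93). The ABCC1 call was lost as well by limma-trend with a pseudocount of 0.1 (0.99) and in 1 fit of all 18 libraries (0.98). By FDR alone 7 of the 8 genes passed for Caco-2, and for HT-29 6, beside 49.6% and 77.7% of all genes. In HT-29, ABCB1 differed by -0.08 between the agents, with a 95% interval from -0.35 to 0.20, and ABCG2 by -0.11, with an interval from -0.21 to 0.00 (FDR 0.0817). With library size only these became -0.57 (FDR 0.000551) for ABCB1 and -0.60 (FDR 1.55e-10) for ABCG2, so both depend on the scaling.

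For CoCl2 the signed difference in response, HT-29 minus Caco-2, was called positive for 2 of the 8 genes and negative for 0, where 7.79% and 13.8% of all genes were called in those directions and 49.8% passed the FDR alone. The 2 were ABCC2, with the larger rise in HT-29, and ABCB1, whose changes had opposite signs. The difference for ABCC3 was -0.04, and 5 of the 8 passed the FDR alone. For OD the difference was called positive for ABCC2 and negative for ABCG2, beside 8.96% and 6.24% of all genes, and 7 of the 8 passed the FDR alone, beside 42.9%.

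Taken as a pool, the transporter mRNAs changed in make-up, which does not depend on the scaling of the libraries. With CoCl2 the share of ABCC2 in Caco-2 went from 41.6% to 78.7% ± 0.75 (SD, n = 3) of the summed RPKM and that of ABCC3 from 38.2% to 8.30% ± 0.47. OD gave 53.3% ± 1.68 for ABCC2 and 27.0% ± 1.58 for ABCC3. In HT-29 with CoCl2, ABCC1 became the most abundant of the 8 at 33.5% ± 0.17, up from 9.68% ± 0.25, while ABCC3 went from 66.6% to 29.7% ± 0.88. ABCC2 moved there from 0.147% ± 0.097 to 11.8% ± 0.52, and to 0.662% ± 0.062 with OD. ABCC4 went from 13.9% ± 0.33 to 5.26% ± 0.27 with CoCl2 and 6.19% ± 0.38 with OD. The summed RPKM, which does depend on scaling, was 128 ± 4.17 in Caco-2 controls, 186 ± 4.96 under CoCl2 and 118 ± 1.31 under OD. In HT-29 it was 88.6 ± 2.45, 63.2 ± 1.36 and 94.5 ± 1.54.

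**Figure D3:**
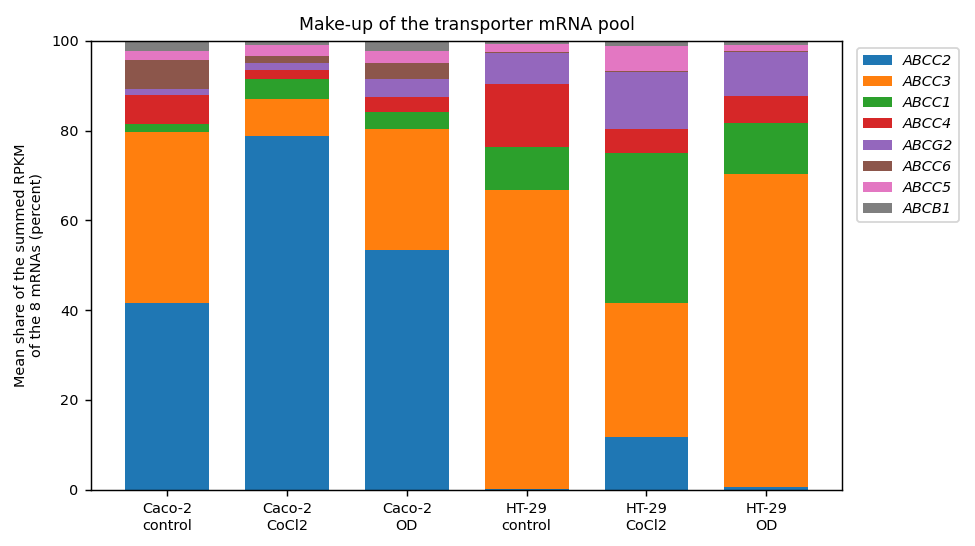
Mean share of each mRNA in the summed RPKM of the 8 transporters (percent, n = 3 per group), 1 stacked bar per group. ABCC2 grows from 41.6% to 78.7% with CoCl2 in Caco-2, and ABCC1 reaches 33.5% with CoCl2 in HT-29.

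The ratio of apical ABCC2 to basolateral ABCC3 was also taken within each library. In Caco-2 it was 1.08, 1.05 and 1.13 in controls, 8.82, 10.0 and 9.69 with CoCl2, and 2.14, 1.99 and 1.80 with OD. In HT-29 it was 0.00365, 0.000721 and 0.00226 in controls, 0.365, 0.421 and 0.405 with CoCl2, and 0.0106, 0.00920 and 0.00875 with OD. Every treated library lay above every control library of its line. On the log2 scale the ratio in Caco-2 was higher than in controls by 3.12 (CoCl2) and 0.86 (OD), and that in HT-29 by 7.77 and 2.39. The HT-29 control log2 ratios had an SD of 1.20, and without control replicate 2, with its 6 ABCC2 counts, the HT-29 differences were 7.11 and 1.72. The ratio was chosen after the changes of both genes were known, and it was not tested.

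**Figure D4:**
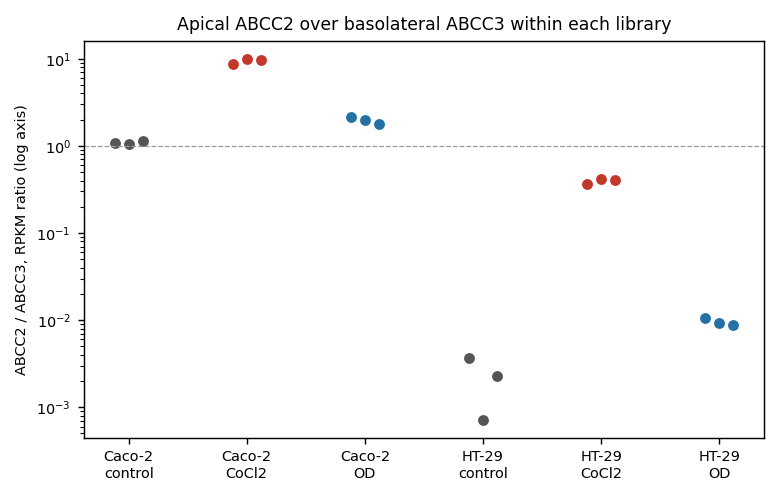
Ratio of ABCC2 to ABCC3 (RPKM, log axis) in each of the 18 libraries, with the dashed line at 1. Caco-2 libraries move from about 1.08 to between 8.82 and 10.0 with CoCl2, and the HT-29 libraries stay under 1 in all groups.

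The genes whose levels followed each transporter most closely were taken over the 18 libraries, after centring each line, among 10809 genes with enough counts. The libraries share 6 groups, so these correlations mainly rank likeness of the group means and carry no test. ABCB6, another ABC transporter, followed ABCC2 most closely (Pearson r = 0.984, n = 18). ABCC4 was followed by SLC7A2 (0.987), a carrier of cationic amino acids, and CFTR (0.987), the chloride channel of the same ABC family. ABCC3 was nearest to KCNK5 (0.990), ABCC1 to ZFP36 (0.986), ABCC5 to DNAJC2 (0.983), ABCG2 to ARCN1 (0.980), ABCC6 to GALNT12 (0.964) and ABCB1 to MYO7A (0.922).

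Of 40 other ABC genes, Caco-2 had 23 tested and HT-29 had 26. With CoCl2, 1 was called higher and 5 lower in Caco-2, where 9.13% and 14.2% of all genes were, and 7 higher and 6 lower in HT-29, where 17.4% and 23.9% were. With OD the calls were 1 and 1 for Caco-2 (4.43% and 7.27% of all genes), then 7 and 3 for HT-29 (9.50% and 7.57%). ABCB6, a porphyrin transporter, rose with CoCl2 by 1.20 for Caco-2 (FDR 1.04e-08) and 4.27 for HT-29 (FDR 4.44e-21). CFTR fell in all 4 comparisons, for Caco-2 from 399 ± 18 CPM to 77.0 ± 11.8 under CoCl2 and 97.0 ± 6.56 under OD (-2.37 and -2.04), and for HT-29 from 407 ± 8.52 to 24.4 ± 0.44 and 115 ± 10 (-4.06 and -1.83). TAP1, a peptide transporter of antigen presentation, rose with OD in HT-29 by 3.02 (FDR 8.35e-20). The median log2 change of the other ABC genes under CoCl2 was 0.13 (Caco-2) and 0.46 (HT-29), and under OD -0.09 and 0.31.

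Conjugating enzymes make many of the substrates that these pumps carry. Of 32 genes, 27 were tested in Caco-2, with 4 higher and 10 lower under CoCl2 (all genes 9.13% and 14.2%) and 1 higher and 11 lower under OD (4.43% and 7.27%). In HT-29, 21 were tested, with 10 higher and 5 lower under CoCl2 (17.4% and 23.9%) and 3 and 3 under OD (9.50% and 7.57%). GCLM, a subunit of the enzyme that limits glutathione synthesis, rose under CoCl2 from 8.78 ± 0.54 to 53.2 ± 1.06 CPM in Caco-2 (2.60, FDR 8.77e-16) and from 29.8 ± 1.22 to 503 ± 23.7 in HT-29 (4.07, FDR 6.49e-28). The glucuronidation enzyme UGT2B17, which has close paralogs, fell in Caco-2 from 29.1 ± 6.57 to 5.11 ± 1.34 CPM with CoCl2 (-2.53) and 7.97 ± 1.24 with OD (-1.86). The median log2 change of the list under CoCl2 was -0.85 (Caco-2) and 0.71 (HT-29), and under OD -0.46 and 0.40.

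Of 26 uptake and other drug carriers, Caco-2 had 20 tested, with 2 called higher and 8 lower under CoCl2 (all genes 9.13% and 14.2%) and 2 and 2 under OD (4.43% and 7.27%). HT-29 had 19 tested, with 6 and 6 under CoCl2 (17.4% and 23.9%) and 6 and 1 under OD (9.50% and 7.57%). SLCO4A1, an organic anion carrier, rose in all 4 comparisons, by 1.36 (CoCl2) and 1.42 (OD) in Caco-2 and, in HT-29, by 2.68 (CoCl2) and 1.75 (OD). SLC15A1, the intestinal peptide carrier, held 22.2 ± 1.45 CPM in Caco-2 controls and rose to 65.3 ± 5.19 under CoCl2 and 87.0 ± 1.90 under OD. Of 14 proteins that anchor or traffic these pumps, PIM1, a kinase that acts on ABCG2, rose in HT-29 from 4.12 ± 0.17 to 46.1 ± 1.35 CPM under CoCl2 and 52.2 ± 4.64 under OD (3.48 and 3.66), and PDZK1, a scaffold of apical carriers, fell there by -2.46 and -1.35. In that list, beside the same all-gene shares, 3 of 13 tested were called higher and 1 lower with CoCl2 and 2 and 0 with OD in Caco-2, and 2 and 1 of 14 with each agent in HT-29.

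Among 27 regulators of transporter genes, all of them tested in Caco-2 but 25 in HT-29, CoCl2 in Caco-2 gave 1 higher (KEAP1, the NRF2 repressor, from 42.0 ± 2.86 to 84.9 ± 7.23 CPM) and 1 lower (VDR, the vitamin D receptor, -1.13), where 9.13% and 14.2% of all genes were called. OD gave 1 higher there (FOXO1, 1.19) and 0 lower (4.43% and 7.27%). In HT-29, CoCl2 gave 2 higher (HIF1A 1.40, KEAP1 1.80) and 2 lower (NR0B2 -1.51, CDX2 -1.46), beside 17.4% and 23.9%, and OD gave 1 higher and 0 lower, beside 9.50% and 7.57%. NFE2L2 (NRF2) changed under CoCl2 by 0.82 (Caco-2) and 0.55 (HT-29) and under OD by 0.97 and -0.51, and AHR by -0.96 and -0.76 for HT-29, none called. NR1I2, the pregnane X receptor, went in HT-29 from 0.919 ± 0.16 to 2.5 ± 0.28 CPM with OD (1.40, FDR 7.15e-06). Target genes stood beside these: with CoCl2, HIF readouts were called higher for 8 of 8 tested (Caco-2) and 8 of 9 (HT-29), and NRF2 readouts for 6 of 6 and 6 of 7. With OD the HIF readouts numbered 6 of 8 and 4 of 9, and the NRF2 readouts 1 of 6 and 5 of 7. Readouts of the aryl hydrocarbon receptor were mixed under CoCl2, with 2 higher and 0 lower of 3 tested in Caco-2 and 2 higher and 2 lower of 5 in HT-29 (NQO1 1.60, which is also an NRF2 target, and CYP1B1 -2.83), and with OD 0 of 3 and 1 of 5 were called. The part of these factors in the transporter changes was not tested.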

How the data were processed

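Only the mRNA tables were used. For each gene the authors deposited unnormalized read counts. Per the study's methods and the submitters' processing notes, reads were trimmed with cutadapt 2.10, aligned with STAR 2.7.5b to GRCh38.p13 and counted on GENCODE 34, and edgeR 3.30.3 was named. The authors also deposited log2 values. For genes with values above 0, recomputation showed these to be log2 of RPKM plus 1 on TMM-scaled libraries within each line. ABCC2 and ABCC6 are deposited at 0 in every HT-29 library, against the counts. With CoCl2, ABCC2 held 748 to 887 counts there, or 7.17 to 7.62 RPKM when recomputed. The reason for these zeros was not settled, and the HT-29 results for both genes rest on the counts.

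Each line was fitted alone over its 9 libraries, and the difference in response between the lines over all 18, in edgeR 4.0.16 (R 4.3.3) with TMM scaling, filterByExpr and the two-sided quasi-likelihood F test, with Benjamini-Hochberg adjustment over all genes tested. Library totals set the precision through the SE given. The test was also run on simulated counts for CoCl2 in Caco-2. RPKM used the gene lengths implied by the deposited values. Counts near 0 were read against a floor of 3 counts. The floor and the intervals of a single library would cover counting error only. Replicate numbers did not pair the samples (correlations from -0.055 to 0.068).

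Alternatives were other scalings, DESeq2 1.42.0, other filters, limma 3.58.1 on the deposited values, a replicate block, a joint fit and leaving out each library. The 8 genes, the lists and the rule for named genes (all 8, up to 4 per other list and comparison, named regulators, and the closest genes by correlation) were chosen with earlier results of these data known. Promoter sequences are from RefSeq (GRCh38.p14). The miRNA tables were not used here.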

Additional observations from a re-analysis of the deposited data

Results flagged for a closer look

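ABCB1, ABCC2 and ABCG2 responded differently in the 2 lines by a test of the difference itself, an edgeR interaction over all 18 libraries, given as the HT-29 change minus the Caco-2 change on the log2 scale. For CoCl2 the difference was 1.32 for ABCB1 (SE 0.20, FDR 7.17e-07), whose change was -0.82 in Caco-2 and 0.60 in HT-29, the latter -0.03 with library size only. For ABCC2 it was 4.35 (SE 0.18, FDR 4.49e-20) for CoCl2 and 2.03 (SE 0.22, FDR 3.16e-09) for OD, from HT-29 controls with 6 to 26 counts per library. For ABCG2 it was -1.01 with OD (SE 0.13, FDR 7.81e-08), and this lay so near the limit on the fold change that 9 of 24 alternatives did not call it. Single outlying values of a gene were not tested in groups of 3 libraries. Replicate pairs were compared over expressed genes by chi-square per degree of freedom. For OD in Caco-2, replicate 1 gave 9.51 and 12.6 against the others, which gave 3.43 between them. For CoCl2 in Caco-2, replicate 1 gave 8.79 and 10.7, against 3.42. For HT-29 controls, replicate 3 gave 6.10 and 5.00, against 1.99.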

How the results depend on the processing

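Of the recomputed log2 fold changes of the 8 genes, 1384 kept their direction and their side of the threshold, 23 lost the call, 8 gained it and 7 changed sign. With library size only, ABCB1 and ABCG2 turned to -0.0294 and -0.15 with CoCl2 in HT-29, and the difference between the lines for ABCC5 under CoCl2 turned to -0.10. That for ABCC3 turned to 0.0622 with median-ratio size factors and 0.0624 with DESeq2. Leaving out 1 library, ABCC6 with OD in HT-29 ran from -0.407 (without OD replicate 2) to 0.13 (without OD replicate 3), and ABCB1, CoCl2 against OD in HT-29, from -0.128 (without OD replicate 2) to 0.00547 (without CoCl2 replicate 3). None of these 7 was called in the main analysis, and the cause was not tested.

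Counts of called genes moved most with no limit on the fold change, to 8 (CoCl2, Caco-2), 7 (OD, Caco-2), 7 (CoCl2 against OD, Caco-2), 7 (OD, HT-29), 5 and 7 (difference between the lines for CoCl2 and OD) and 8 (between the controls). On the deposited log2 values, limma-trend gave 1 (OD, Caco-2), 1 (CoCl2 against OD, Caco-2), 3 (CoCl2, HT-29), 0 (OD, HT-29) and 1 (CoCl2 against OD, HT-29), and with a pseudocount of 0.1 they were 1 and 2 for the last 2. ABCC2 and ABCC6 are listed at 0 there in HT-29 and gave no value, and a pseudocount of 1 shrinks low values. With no filter on low counts, OD in Caco-2 called 1. The difference between the lines for OD called 1 with library size only, median-ratio size factors, DESeq2 and at least 10 counts on average in every group. Leaving out 1 library gave 1 to 3 there, 1 to 3 for CoCl2 against OD in Caco-2 and 2 to 3 for OD in Caco-2. The ABCG2 call for that difference was lost without Caco-2 control replicate 2 or 3, Caco-2 OD replicate 1, HT-29 control replicate 3 or HT-29 OD replicate 2.

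The replicate block, with numbers that did not pair the samples, left every count of called genes at its value, which for CoCl2, OD and CoCl2 against OD was 5, 2 and 2 (Caco-2) or 6, 2 and 5 (HT-29), 2 and 2 between the lines and 5 between the controls. For the ABCC2 to ABCC3 ratio, leaving out 1 library was chosen after seeing the data. It could not change the sign of the log2 difference, because every treated library lay above every control library of its line. In Caco-2 the difference ran from 3.09 to 3.18 with CoCl2 and from 0.80 to 0.92 with OD. In HT-29 it ran from 7.11 to 8.28 with CoCl2 and from 1.72 to 2.89 with OD. ABCC6 in HT-29, with 3 or 4 counts under CoCl2, and ABCC2 in HT-29 controls were limited by depth.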
